A study of Mus musculus with 2 samples.

Results

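The uroplakins are the membrane proteins that cover the apical face of the urothelium, the epithelium that lines the bladder. The family was taken as the genes Upk1a, Upk1b, Upk2, Upk3a and Upk3b, chosen by symbol. All 5 were found among the 31053 genes listed for both libraries. They were counted by droplet-based single-cell RNA sequencing (10x Genomics, 3′ tags) in organoids from normal mouse urothelium of wild-type C57BL/6 mice aged 8 to 10 weeks. One library came from proliferative organoids (P) in complete medium, and 1 from differentiated organoids (D), for which WNT3A, RSPO1, EGF, Noggin and the TGF-β receptor inhibitor LY2157299 were left out of the medium. Organoids are epithelial cultures grown in a gel matrix from digested urothelial scrapings, so they lack the bladder wall and the contact with urine, and the labels do not say how many animals or cultures a library pooled. With 1 library in each group, no difference between P and D had a replicate check and no p-value was computed. Every interval given here covers counting error only, and unless stated otherwise it is an exact 95% interval. Intervals on counted RNA molecules treat each molecule as independent, although 1 cell can hold many.

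Uroplakins leave the endoplasmic reticulum as partners. The tetraspanins Upk1a and Upk1b each span the membrane several times, whereas Upk2, Upk3a and Upk3b cross it once. Upk1a pairs with Upk2, and Upk1b pairs with Upk3a or Upk3b. The pairs then join into particles that tile the surface of umbrella cells, the outermost urothelial cells, as rigid plaques that form part of the barrier to urine.

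After removal of barcodes with 800 or fewer detected genes or over 12% of mitochondrial transcripts, 6818 of 8194 barcodes were kept in P and 4896 of 6975 in D, with medians of 3405.5 and 3227.5 unique molecular identifiers (UMIs) per cell. A UMI marks 1 captured RNA molecule. Because detection depends on depth, cells were also thinned at random to 2100 UMIs each, which left 6638 P cells and 4417 D cells and dropped 180 and 479 shallower ones. Only 6 kept barcodes occurred in both libraries, and none of them was a P cell with a uroplakin UMI. The epithelial marker Epcam had 318 CPM (counts per 1000000 UMIs) in P and 471 in D. None of the 4 erythroid markers was counted in either library. The fibroblast marker Dcn had 60.8 CPM in D (40.5-fold over P), Acta2 of smooth muscle 41.2 CPM (39.3-fold) and the leukocyte marker Laptm5 19.7 CPM (75.1-fold). In P these had 40, 28 and 7 UMIs. The endothelial marker Pecam1 differed by 1.095-fold. Whether cells other than epithelial ones were present was not tested. Krt20, the keratin that marks umbrella cells, had 8 UMIs in P and 3 in D, so this umbrella marker was nearly absent from the differentiated cells.

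The genes lie apart in the mouse genome (GRCm38), with Upk1a at chr7:30603092-30612847 on the minus strand, Upk1b at chr16:38773184-38800328 on the minus strand, Upk2 at chr9:44452715-44454976 on the minus strand, Upk3a at chr15:85017141-85022547 on the plus strand and Upk3b at chr5:136038496-136046487 on the plus strand. None of the 5 overlapped another annotated gene. The paralog Upk3bl, a uroplakin 3b-like gene that is not a member, lies downstream of Upk3b on the same strand (chr5:136054492-136064326). The 250 bases before the RefSeq start sites (GRCm38.p6) are shown for the 3 members with an entry, 5′ to 3′ on the gene's strand. Capitals mark the letters of motifs searched on both strands: GATA (or TATC on the other strand) for GATA factors, GGGCGG for KLF and SP factors, AGGTCA for nuclear receptors such as PPARγ with RXRα, the FOXA motif, the GRHL motif AACCNGTT, and TATAA for the TATA box.
Upk1a, chr7:30612735-30612984 (-): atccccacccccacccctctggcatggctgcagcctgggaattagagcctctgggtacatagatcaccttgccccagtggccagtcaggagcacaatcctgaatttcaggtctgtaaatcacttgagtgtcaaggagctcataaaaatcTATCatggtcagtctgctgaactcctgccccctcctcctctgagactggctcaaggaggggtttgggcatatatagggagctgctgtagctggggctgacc
Upk3a, chr15:85016891-85017140 (+): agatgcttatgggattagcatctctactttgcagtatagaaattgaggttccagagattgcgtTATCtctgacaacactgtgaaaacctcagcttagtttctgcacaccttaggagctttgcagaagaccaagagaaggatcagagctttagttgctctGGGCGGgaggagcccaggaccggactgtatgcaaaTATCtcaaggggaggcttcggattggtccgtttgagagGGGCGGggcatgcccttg
Upk3b, chr5:136038246-136038495 (+): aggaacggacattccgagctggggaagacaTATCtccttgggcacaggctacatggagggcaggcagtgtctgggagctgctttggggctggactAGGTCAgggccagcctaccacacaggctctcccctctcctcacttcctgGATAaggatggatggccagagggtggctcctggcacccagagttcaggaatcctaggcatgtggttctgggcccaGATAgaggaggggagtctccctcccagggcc

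GATA letters occurred once before Upk1a, 2 times before Upk3a and 3 times before Upk3b, and 53.6% of 32851 RefSeq promoters of this length hold them. The KLF and SP letters occurred 2 times before Upk3a (32.7% of promoters), and the nuclear receptor letters once before Upk3b (14.02% of promoters). No match to the letters TATAA, the FOXA motif or the GRHL motif was found in these 3 windows, against shares of 22.8, 17.8 and 1.79% of promoters. Only these letters were searched for the TATA box, so similar letters, such as the tatatag of the Upk1a window, were not counted. The RefSeq start of Upk1a, at base 30612734 of chromosome 7, lies inside the gene as GENCODE draws it, so its window covers part of the GENCODE model, whereas the starts of Upk3a and Upk3b coincide in both annotations. Upk1b and Upk2 had no entry.

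To learn how the change of medium bore on each member, the number of cells carrying its transcript was compared at equal depth. All 5 members had at least 2-fold higher CPM in D than in P, against 13.5% of the 10719 genes whose summed count reached 100 UMIs. Upk2, Upk3a and Upk3b reached that count through D alone, with 7, 4 and 29 UMIs in P, so they had to differ and their number supports nothing. The ratio of Upk3a lay between 883- and 8302-fold and that of Upk2 between 68.9- and 356-fold within counting error. The median gene was itself 0.42 higher in D on the log2 scale, and after this shift the log2 ratios of the members were 10.72 for Upk3a, 6.73 for Upk2, 5.38 for Upk1b, 4.86 for Upk1a and 3.32 for Upk3b. The size of the difference was not shared by the family. The ratio of Upk3b, 13.4-fold (9.14 to 20.4), lay below that of Upk1a, 38.9-fold (34.8 to 43.6), and that of Upk1b, 55.6-fold (48.0 to 64.8), lay above both.

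The tetraspanins reached the most cells. After thinning, Upk1a was detected in 116 of 6638 P cells (1.75%, 1.45 to 2.09%) and 1761 of 4417 D cells (39.9%, 38.4 to 41.3%). Upk1b was detected in 63 P cells (0.949%, 0.730 to 1.21%) and 1414 D cells (32.0%, 30.6 to 33.4%). Without thinning these shares were 2.87 and 46.6% for Upk1a and 1.77 and 39.7% for Upk1b. Upk1a was found in more cells than Upk1b in both libraries.

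The single-pass members were sparser. Upk2 was detected in 2 P cells (0.0301%, 0.00365 to 0.109%) and 256 D cells (5.80%, 5.12 to 6.53%), and Upk3b in 7 P cells (0.105%, 0.0424 to 0.217%) and 100 D cells (2.26%, 1.85 to 2.75%). Upk3a was detected in 2 P cells, which held 3 and 1 of its UMIs, and in 593 D cells (13.4%, 12.4 to 14.5%). Without thinning, the D shares were 11.4% for Upk2, 16.1% for Upk3a and 4.53% for Upk3b.

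**Figure D1:**
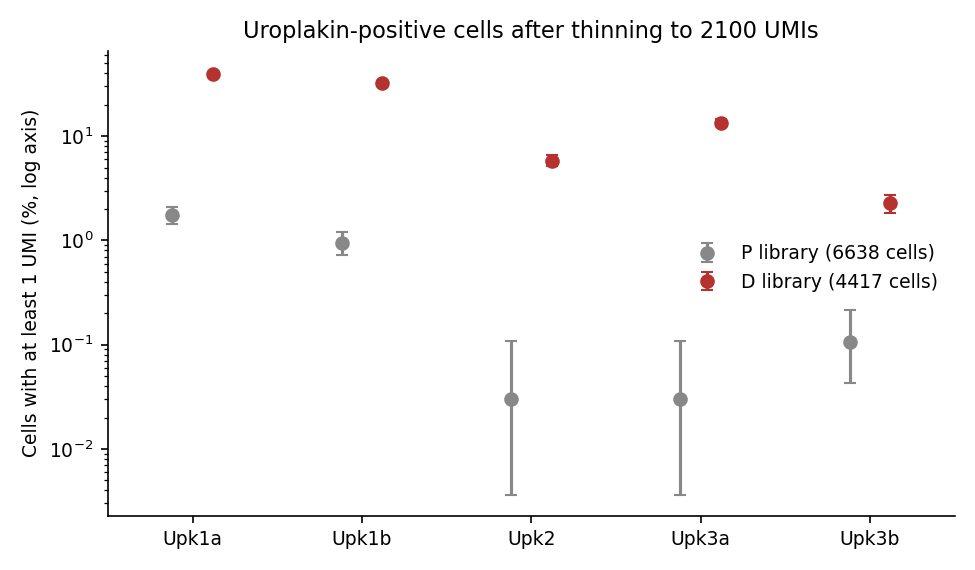
Share of cells with at least 1 UMI of each uroplakin after thinning to 2100 UMIs (percent, log axis) in the P library (grey, 6638 cells) and the D library (red, 4417 cells). Points are shares and bars exact 95% binomial intervals; each D point lies above its P point, from 2.26% for Upk3b to 39.9% for Upk1a.

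As a background for these shares, cells were grouped into clusters made without the 5 members, which go by number and leading genes. In P, cluster 3 was led by the mitotic genes Ccna2, Hmmr and Nusap1 and held a uroplakin UMI in 3 of 324 cells (0.926%, 0.191 to 2.68%; median 4027.5 UMIs before thinning). In D, cluster 1, led by Myl9, Wisp1 and Acta2 and higher than the rest in 5 of 6 basal markers, held one in 114 of 1030 cells (11.1%, 9.22 to 13.1%; median 2679 UMIs). In cluster 1 of D the shares were 5.24% for Upk1a, 4.17% for Upk1b, 0.194% for Upk2, 2.14% for Upk3a and 0.388% for Upk3b. Each member's share over all D cells lay above that of this cluster. In the mitotic cluster of P, Upk1a was detected in 1 cell (0.309%, 0.00781 to 1.71%), Upk1b in 2 (0.617%, 0.0748 to 2.21%) and the other 3 members in 0 of 324 cells, which allows shares of up to 0.926% (3 counts of the total). The shares of Upk1b, Upk2, Upk3a and Upk3b over all P cells lay within these bounds. At this depth they could not be told from the shares in this mitotic cluster. The share of Upk1a over all P cells lay just above its bound. In cluster 0 of P, led by Sprr3, Cnfn and Rptn, it was 4.02% (3.30 to 4.85%; median 4201 UMIs). In that cluster Upk1b was detected in 1.53% of cells (1.10 to 2.08%). Its share was 0.689% (0.402 to 1.10%) in cluster 1 of P and 0.324% (0.0884 to 0.828%) in cluster 2. Upk1a and Upk1b were met together in 15 P cells, against 1.10 expected from their separate shares.

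Upk3a differed from the rest in how its transcripts were spread over cells. A D cell positive for Upk3a held a mean of 4.77 of its UMIs after thinning, against 2.26 for Upk1a, 2.18 for Upk1b, 1.12 for Upk2 and 1.14 for Upk3b. The 81 D cells with at least 10 Upk3a UMIs carried 46.9% of all Upk3a UMIs, and the highest cell had 45 of its 2100. For each tetraspanin, 13 cells reached 10 UMIs, and they carried 3.42% of the Upk1a UMIs and 5.35% of the Upk1b UMIs. The top 5% of D cells (221 cells, ranked for each gene) held 77.9% of the Upk3a UMIs, 41.8% of those of Upk1b and 32.1% of those of Upk1a. For the sparser Upk2 and Upk3b this share was 87.8 and 100%. It is high for any gene found in few cells and does not by itself set Upk3a apart. Of the Upk2-positive cells, 89.1% (84.6 to 92.6%) had a single Upk2 UMI.

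To examine whether partners were met in the same cells, D cells with both genes of a pair were counted for all 10 pairs and divided by the number expected from the separate shares of both genes. All 10 ratios were above 1. Their intervals cover the count of cells with both genes and take the expected number as fixed. The partner pairs had ratios of 1.73 for Upk1a with Upk2 (177 cells, 1.49 to 2.003), 2.26 for Upk1b with Upk3a (429 cells, 2.06 to 2.47) and 2.66 for Upk1b with Upk3b (85 cells, 2.12 to 3.28). The 7 pairs that are not partners ranged from 1.69 to 4.02, with a median of 2.18 against 2.26 for the partners. Upk3a with Upk3b, which share the partner Upk1b and are not partners of each other, had a ratio of 4.02 (54 cells, 3.03 to 5.24), and the tetraspanins Upk1a with Upk1b had 1.69 (952 cells, 1.59 to 1.79). A ratio cannot exceed 1 divided by the larger of both shares, which is 2.51 for any pair with Upk1a, 3.12 for the other pairs with Upk1b and 7.45 for Upk3a with Upk3b. The order of the pairs and the medians of partners and other pairs are therefore set in part by how widespread the genes were.

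Matching each single-pass gene with its partner and with the other tetraspanin gave different outcomes. Upk3a was met with Upk1b at a ratio of 2.26 (2.06 to 2.47) and with Upk1a at 1.83 (1.67 to 1.998), and these intervals did not overlap. Upk3a-positive cells nevertheless held both tetraspanins alike, Upk1b in 72.3% and Upk1a in 72.8%, and the ratios differed because Upk1a was the more widespread gene (39.9 against 32.0% of D cells). In 11 alternative settings the ratio with Upk1b was the higher one each time, but the intervals overlapped in 7 of them, among them both other thinning depths and the counts without thinning. Upk3b was met with Upk1b at 2.66 and with Upk1a at 2.18 (1.75 to 2.69), with overlapping intervals. Upk2 was met with its partner Upk1a at 1.73 and with Upk1b at 1.77 (1.497 to 2.08), which were indistinguishable. When the expected number was summed within clusters, the partner pairs had ratios of 1.26 to 1.47 and the other pairs of 1.20 to 1.88. The intervals for Upk3a with Upk1b (1.36, 1.24 to 1.49) and with Upk1a (1.21, 1.10 to 1.32) then overlapped.

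**Figure D2:**
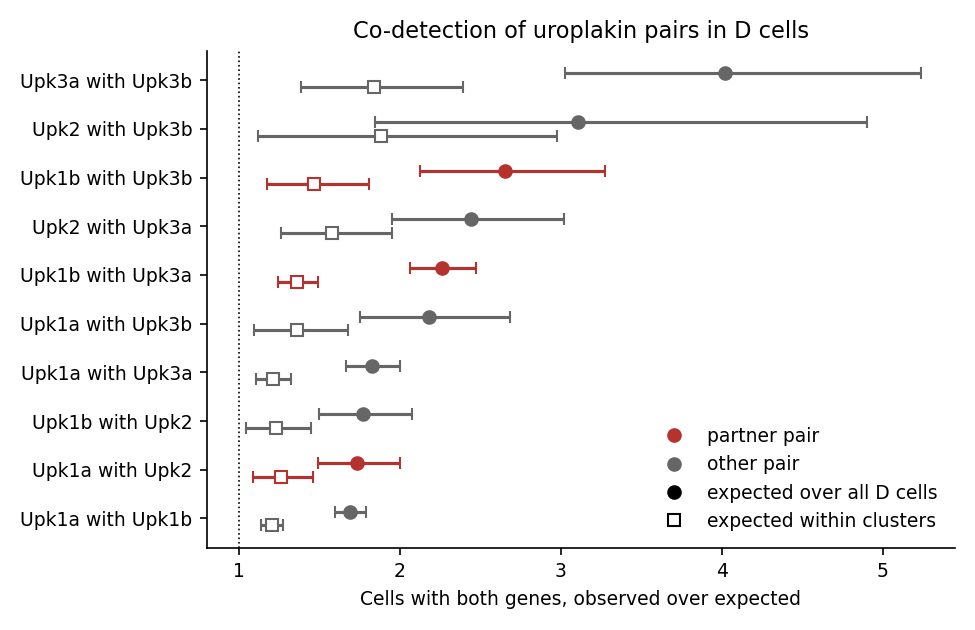
Number of D cells with both genes of a pair over the number expected from the share of each gene, for the 10 uroplakin pairs. Bars are exact 95% binomial intervals of the number of cells with both genes, with the expected number taken as fixed. Filled circles use the shares over all 4417 thinned D cells and open squares sum the expected number within clusters; the 3 partner pairs (red) lie between 1.73 and 2.66, within the range of the 7 other pairs (grey, 1.69 to 4.02), and all ratios are smaller within clusters.

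Seen from the single-pass genes, most positive cells carried the partner. Upk1a was detected in 69.1% (63.1 to 74.7%) of Upk2-positive D cells, Upk1b in 72.3% (68.6 to 75.9%) of Upk3a-positive cells, and Upk1b in 85.0% (76.5 to 91.4%) of Upk3b-positive cells. The other tetraspanin, Upk1a, was about as frequent in Upk3a-positive cells (72.8%, 69.1 to 76.4%) and in Upk3b-positive cells (87.0%, 78.8 to 92.9%). In Upk2-positive cells the other tetraspanin, Upk1b, was less frequent than the partner, at 56.6% (50.3 to 62.8%), and it was also the less frequent of the tetraspanins over all D cells. Neither tetraspanin was detected in 19.5% of Upk2-positive, 15.0% of Upk3a-positive and 5% of Upk3b-positive cells, against 49.7% of all D cells. In those cells the median was 1 UMI of the single-pass gene, and none of the 89 Upk3a-positive ones had 10 or more.

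Only in cells with at least 10 Upk3a UMIs was the partner found more often than the other tetraspanin. Upk1b was detected in 25.8% (24.4 to 27.2%) of the 3824 D cells without Upk3a, in 51.7% (44.7 to 58.6%) of the 211 cells with 1 Upk3a UMI, in 79.4% (74.4 to 83.8%) of the 301 cells with 2 to 9, and in all 81 cells with at least 10 (100%, 95.5 to 100%). At 0, 1 and 2 to 9 Upk3a UMIs, Upk1a was detected in 34.8% (33.2 to 36.3%), 55.5% (48.5 to 62.3%) and 81.1% (76.2 to 85.3%) of cells. It was detected in 71 of the 81 cells with at least 10 Upk3a UMIs (87.7%, 78.5 to 93.9%). The mean number of Upk1b UMIs went from 0.446 to 5.09 between the cells without Upk3a and those with at least 10, and that of Upk1a from 0.695 to 3.83. Upk2 was detected in 4.498% and 27.2% of these cells, and Upk3b in 1.20% and 22.2%. These 81 cells were chosen by their Upk3a level alone.

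Cells with more tetraspanin transcripts were also more often positive for Upk3a. Upk3a was detected in 4.06% (3.27 to 4.97%) of 2194 D cells with no UMI of Upk1a or Upk1b and in 70.3% (60.4 to 79.0%) of 101 cells with 10 or more. Per tetraspanin UMI, the Upk3a UMIs numbered 0.223 in cells with 1 tetraspanin UMI and 0.553 in cells with 10 or more. Upk2 was also more often positive, from 2.28% of cells with no tetraspanin UMI to 28.7% of cells with 10 or more. Its UMIs per tetraspanin UMI numbered 0.0735 in cells with 1 tetraspanin UMI, on 59 UMIs. In every group above that they numbered between 0.0240 and 0.0340. The Upk3b UMIs per tetraspanin UMI went from 0.00747 to 0.0272, on 6 and 36 UMIs. These numbers divide by the count that set the groups and have no interval.

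**Figure D3:**
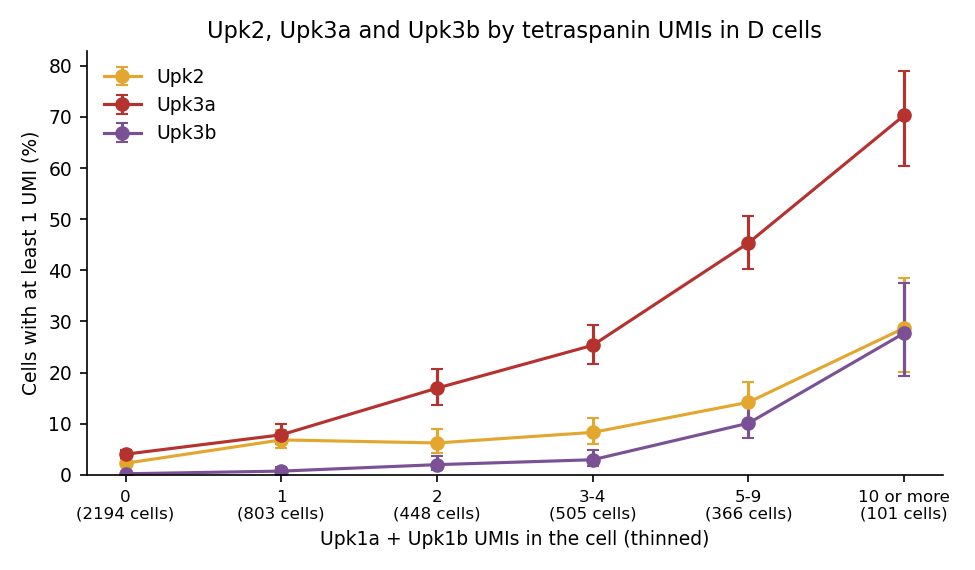
Share of D cells with at least 1 UMI of Upk2, Upk3a or Upk3b (percent, exact 95% binomial intervals) in 6 groups of cells set by the sum of Upk1a and Upk1b UMIs after thinning, with the number of cells in brackets. Upk3a goes from 4.06% in cells without tetraspanin UMIs to 70.3% in cells with 10 or more, and Upk2 from 2.28 to 28.7%.

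To place the members in an order, D cells were first sorted by how many of them they held. No member was detected in 2051 of 4417 cells, 1 in 1176, 2 in 744, 3 in 339, 4 in 92 and all 5 in 15. Among cells with a single member, that member was Upk1a in 673 (57.2%), Upk1b in 361 (30.7%), Upk3a in 88 (7.48%), Upk2 in 49 (4.17%) and Upk3b in 5 (0.425%). Among cells with 2, the pair of tetraspanins accounted for 524 of 744. Among cells with 3, the pair of tetraspanins with Upk3a accounted for 253 of 339, and Upk2 was present in 56 and Upk3b in 30. At a fixed depth a gene with more transcripts is met sooner, so these steps rank detection and not time.

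In P the same count stopped early. Of 6638 P cells, 6467 held no member, 154 held 1, 15 held 2, and 2 held 3. Upk1a alone was found in 100 cells, Upk1b alone in 47, Upk3b alone in 5 and Upk2 alone in 2. Upk3a was never found alone in P. Both Upk3a-positive cells of P also held its partner Upk1b, together with Upk1a in one and Upk3b in the other.

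An axis that used no uroplakin was then built in each library from 11 luminal side genes (led by Krt7, Krt8, Krt18, Krt19 and Psca) and 10 basal side genes (led by Krt5, Krt14 and Krt15), and the rank of each cell on it was expressed in percent. A gene's UMIs lie as often above its median UMI rank as below it. In D the median UMI rank was 77.5% for Upk2 (73.1 to 81.9%), 79.8% for Upk1a (78.7 to 80.4%), 85.0% for Upk1b (84.2 to 85.7%), 89.6% for Upk3a (88.8 to 89.9%) and 90.7% for Upk3b (85.8 to 93.9%). Upk2 and Upk1a, which are partners, could not be ordered within counting error by UMI rank, and neither could Upk3a and Upk3b. Because UMIs of the same cell share its rank, these UMI intervals are too narrow to settle an order by themselves. The intervals of Upk1a, Upk1b and Upk3a did not overlap. On the basal side list alone, however, Upk1b minus Upk1a was 1.31 percentage points, with an interval that included 0 (-0.52 to 3.53). Over positive cells, each counted once, the medians were 72.1% for Upk1a (70.4 to 73.5%), 75.1% for Upk1b (73.4 to 77.1%) and 75.9% for Upk2 (71.8 to 80.9%), with overlapping intervals. Those of Upk3a, 81.8% (79.5 to 83.8%), and Upk3b, 90.2% (84.6 to 93.9%), did not overlap each other, so Upk3b lay farther to the luminal side by cells although its order with Upk3a by UMIs was not settled.

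Along 5 equal bins of cells on the axis, from the basal to the luminal end, Upk1a was detected in 5.55, 21.04, 39.8, 58.4 and 74.6% of D cells, and Upk1b in 5.21, 15.8, 28.7, 41.5 and 68.9%. Upk3a was detected in 2.38, 4.52, 7.25, 17.2 and 35.8%. The luminal bin held 70.4% (68.7 to 72.1%) of the Upk3a UMIs, 58.9% (57.1 to 60.6%) of those of Upk1b, 49.4% (47.8 to 51.0%) of those of Upk1a and 47.0% (41.1 to 53.0%) of those of Upk2. For Upk3b the luminal bin held 75 of 114 UMIs (65.8%, 56.3 to 74.4%). Median depth before thinning moved with the axis, from 2923 UMIs in the basal bin to 3841 in the luminal one, and so did the mitochondrial share (5.91 to 7.67%). Transcripts of 11 genes that respond to cell dissociation had their highest level in the middle bin (3440 CPM) and their lowest in the luminal bin (2294 CPM). The part of these in the order was not tested.

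**Figure D4:**
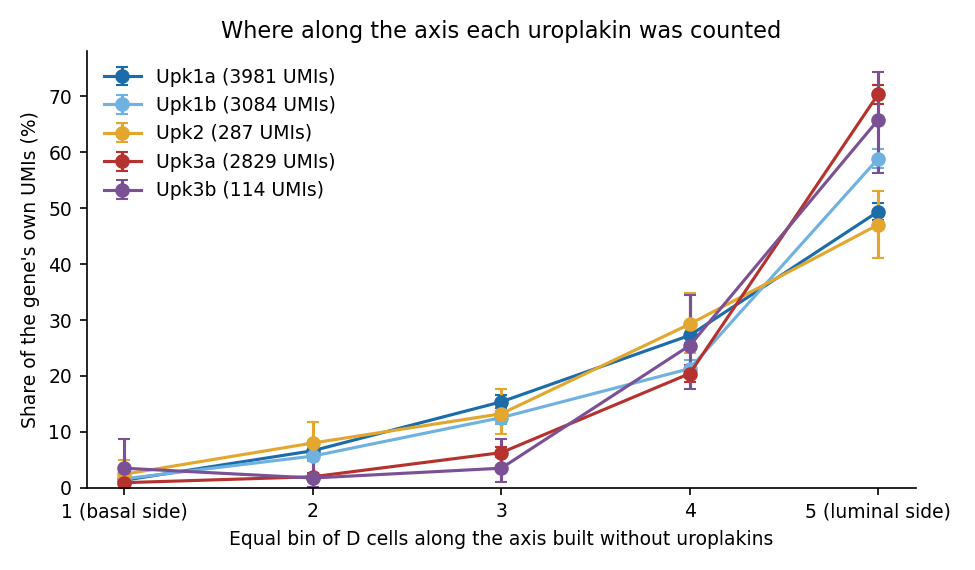
Share of each uroplakin's own UMIs (percent, exact 95% binomial intervals) in 5 equal bins of the D cells ranked from the basal side to the luminal side of an axis built without uroplakins. In the luminal bin Upk3a (70.4%) lies above Upk1b (58.9%), which lies above Upk1a (49.4%) and Upk2 (47.0%). The interval of Upk3b (65.8%, 56.3 to 74.4%) overlaps those of Upk3a and Upk1b. The intervals treat UMIs of the same cell as independent and are too narrow where few cells hold many.

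In P the UMIs of the tetraspanins lay in the opposite order, on few counts. The median UMI rank was 93.6% for Upk1a (91.9 to 96.0%, 145 UMIs) and 80.2% for Upk1b (64.1 to 91.5%, 78 UMIs). Of the Upk1a UMIs, 76.6% (68.8 to 83.2%) fell in the luminal bin of P, against 51.3% (39.7 to 62.8%) of the Upk1b UMIs, whereas 15.4% of the Upk1b UMIs and 2.76% of the Upk1a UMIs fell in the basal bin. Over positive cells, each counted once, the medians were 92.9% for Upk1a (87.6 to 95.4%) and 78.1% for Upk1b (59.2 to 87.9%), with overlapping intervals. The difference in UMI rank was -13.4 percentage points, and opposite limits of the separate intervals gave -31.9 to -0.377. This range included 0 in 4 of 11 alternative settings, and the share of Upk1b in P could not be told from that in the mitotic cluster. The axis is ranked within each library, so that a rank in P and the same rank in D are not the same state.

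Because the members moved unevenly, the make-up of the uroplakin UMIs differed between cells. Shares of this pool compare the same gene across cells and not 1 gene with another, since tags at the 3′ end are captured with unknown efficiency for each gene. Of 548 uroplakin UMIs in P, 59.7% were of Upk1a, 33.0% of Upk1b, 5.29% of Upk3b, 1.28% of Upk2 and 0.730% of Upk3a. Of 25284 in D, 38.3% were of Upk1a, 30.3% of Upk1b, 27.2% of Upk3a, 3.01% of Upk2 and 1.17% of Upk3b. Upk1b thus had nearly the same part of both pools, where the interval ran from 29.1 to 37.1% (P) and from 29.7 to 30.9% (D), whereas the interval for Upk3a ran from 0.199 to 1.86% (P) and from 26.7 to 27.8% (D).

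Within D the pool differed between clusters. Cluster 0, led by Reg1, Fermt3 and Krt1, held a uroplakin UMI in 55.9% (53.9 to 58.0%) of 2317 thinned cells, and 13.4% (12.5 to 14.3%) of its uroplakin UMIs were of Upk3a. Cluster 2, led by Ifit1bl1, BC037156 and Ubd and higher than the rest in all 5 intermediate markers and none of the 6 basal ones, held one in 89.3% (87.3 to 91.1%) of 1070 cells, and 31.5% (30.9 to 32.2%) of its UMIs were of Upk3a. Upk1a made up 53.9% of the pool in cluster 0 and 33.5% in cluster 2, and Upk2 4.60 and 2.54%. The median depth before thinning was 3074 UMIs in cluster 0 and 5635 in cluster 2, and the part of depth or of droplets with 2 cells was not tested. At the finer resolution of 0.4 the cells with most Upk3a separated from the deepest ones: in a cluster of 670 cells with a median of 4053 UMIs, Upk3a was detected in 45.4% (41.5 to 49.3%) and made up 36.5% of the pool, and in a cluster of 460 cells with a median of 9413 UMIs these values were 21.3% (17.6 to 25.3%) and 21.2%.

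In P, 482 of the 548 uroplakin UMIs were in cluster 0, whose leading genes Sprr3, Cnfn and Rptn take part in cornification of squamous epithelia. This cluster was higher than the rest in all 5 intermediate markers, and 5.17% (4.35 to 6.09%) of its cells held a uroplakin UMI. Upk1a made up 63.9% (59.4 to 68.2%) of its pool and Upk1b 28.6% (24.6 to 32.9%). In cluster 1 of P, led by Ctla2a, Igfbp5 and Nbl1, these parts were 27.8% (14.2 to 45.2%) and 66.7% (49.0 to 81.4%) of only 36 UMIs.

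**Figure D5:**
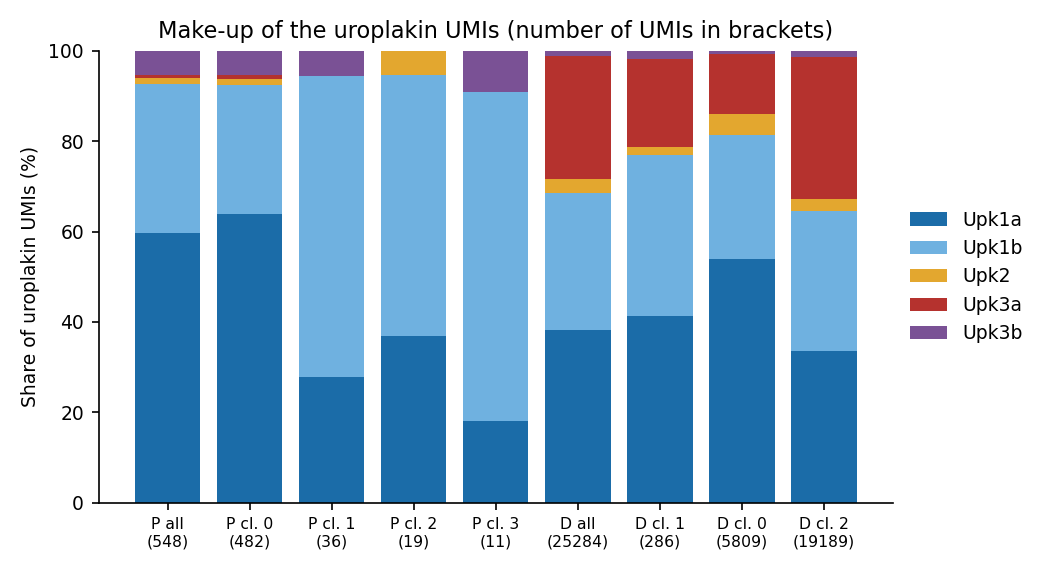
Make-up of the uroplakin UMIs of kept cells (percent of UMIs, stacked to 100) in each library and in each of its clusters made without uroplakins, with the number of UMIs in brackets. Upk3a (red) takes 0.730% of the pool in P, 13.4% in D cluster 0 and 31.5% in D cluster 2.

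Other genes were compared between the 446 D cells with 3 or more members and the 2051 with none, as sums of thinned cells. Of 5751 genes with at least 100 UMIs in these cells, 3.72% (214) were at least 2-fold higher in cells with 3 or more. Of 10 genes that carry uroplakins to the surface or back, 6 had enough UMIs and 1 was 2-fold higher: Mal, a raft protein of apical transport, with 210 CPM in cells without a member and 1122 CPM in cells with 3 or more (log2 2.42). The median log2 ratio of the 6 was 0.63, against -0.11 over all genes tested. Rab27b (log2 0.71), Rab11a (0.82) and Vamp8 (0.56), which act in fusiform vesicle traffic and fusion, stayed under the 2-fold mark. Snx31, a sorting nexin of uroplakin endocytosis, had too few UMIs to be counted, 9 in cells without a member and 85 in cells with 3 or more, which is 2.09, 12.1, 24.96 and 90.8 CPM in cells with 0, 1, 2 and at least 3 members. Sytl2 (log2 1.86, 1.17 to 2.55), Myo5b (1.71, 1.01 to 2.40) and Vps33a (0.62, -0.52 to 1.64) also had too few UMIs to be counted.

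Of 8 urothelial transcription factors, 7 had enough UMIs. Against 3.72% of all genes tested, 2 of the 7 were at least 2-fold higher in the cells with 3 or more members. These were Pparg, the nuclear receptor that drives urothelial differentiation (10.9 against 61.9 CPM, log2 2.50), and Elf3, an epithelial ETS factor (85.2 against 196 CPM, log2 1.21). Foxa1 (log2 0.27), Gata3 (-0.03), Rxra (0.00) and Klf5 (-0.32) differed little, with a median of 0.00 over the 7. Between libraries, 3 of the 8 were at least 2-fold higher in D, against 13.5% of all genes tested: Foxa1 (3.04-fold), Gata3 (2.45-fold) and Pparg (2.68-fold). After the shift of the median gene their log2 ratios were 1.18, 0.87 and 1.0006, so that Gata3 then lay under the 2-fold mark. Elf3 was lower in D than in P (216 and 143 CPM), although it was higher in D cells with more members.

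Relatives of the members were not all alike. Of 27 other tetraspanins, 16 had enough UMIs, with a median log2 ratio of 0.00. Against 3.72% of all genes tested, 3 of the 16 were at least 2-fold higher in cells with 3 or more members. They were Tspan13 (log2 1.99), Tspan8 (1.18) and Cd81 (1.03). Among those with too few UMIs to be counted, Tspan6 (log2 2.50) and Tspan33 (2.35) had larger ratios, Tspan7 had 0.75 and Tspan4 -0.97. Tspan9 was lower (log2 -2.63). The paralog Upk3bl was lower in D cells with more members, although between libraries it was, like the members, higher in D. It had 103, 62.8, 51.2 and 45.9 CPM in cells with 0, 1, 2 and at least 3 members (log2 -1.16, -1.65 to -0.71), and between libraries it differed by 1.93-fold (39.8 CPM in P and 76.7 in D), below the 2-fold mark.

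Markers of other cells moved with these classes and are given for the same cells without and with 3 or more members. Of 6 fibroblast markers, only Dcn had enough UMIs, at 118 and 7.47 CPM, with 5 of 6 at 0 in the latter cells. Of 5 smooth muscle markers, only Acta2 did, at 79.6 and 5.34 CPM, with Myh11 and Des at 0 in both. Upk3b is also known from mesothelium, but of the other 4 mesothelial markers Wt1, Lrrn4 and Gpm6a were at 0 in the D library and Msln had 256 and 170 CPM. Of 12 squamous genes, 7 had enough UMIs. In the cells with 3 or more members, 2 of them were at least 2-fold higher, Sprr1a (log2 2.54) and Ivl (2.08). At least 2-fold lower were 3, Krt1 (-4.04), Krt16 (-2.93) and Krt13 (-1.98). Over all 5751 genes tested, 214 were at least 2-fold higher and 406 at least 2-fold lower. The summed squamous genes had 946 and 2803 CPM, of which Sprr1a made up 367 and 2126. The summed leukocyte markers had 8.59 and 19.2 CPM, nearly all from Laptm5, with Cd52, Cd3e and Cd79a at 0. The endothelial markers summed to 3.71 and 4.27 CPM, with Cdh5 and Kdr at 0. Median depth before thinning was 3029 UMIs in cells without a member and 4518 in those with 3 or more, and the summed dissociation genes had 3182 and 1841 CPM. The part of squamous genes, depth and dissociation in these differences was not tested.

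Across the 4417 D cells, the genes most like the summed members (Pearson's r of natural log UMIs, among 4861 genes found in at least 5% of cells) were Akr1b3, an aldose reductase (0.63), Krt18 (0.56), Psca (0.54), Nupr1 (0.54), S100a6 (0.52), Krt8 (0.51), Mal (0.49), Akr1b8 (0.47), Gstm1 (0.47) and Krt19 (0.45). The median gene had -0.01, and the 95th percentile was 0.10. The cells share 1 library and were thinned to the same depth. The likeness was not equal for the tetraspanins: Gstm1, a glutathione transferase, had 0.48 with Upk1a and 0.28 with Upk1b, whereas Akr1b3 had 0.49 and 0.56. Among the members, r was 0.52 for Upk1a with Upk1b, 0.50 for Upk1b with Upk3a and 0.37 for Upk1a with Upk3a, and from 0.10 to 0.28 for pairs with Upk2 or Upk3b.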

How the data were processed

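Single-cell 3′ RNA-seq of 1 P and 1 D library was analysed. The deposited matrices hold raw counts of UMIs per gene and barcode, which the authors made with bcl2fastq 2.19.0 and Cell Ranger 3.0.2 on GRCm38 (mm10), per the labels. Gene features and barcodes were read as given, and no column of another sample was used. The members and gene lists were chosen with earlier results of these data known. Cells with over 800 genes and at most 12% mitochondrial UMIs were kept, following the study's methods, and thinned to 2100 UMIs (seed 1; Python 3.11.15, NumPy 2.4.6, SciPy 1.17.1). Levels are summed UMIs per 1000000 with exact Poisson intervals, ratios have conditional binomial intervals, and shares and pair counts have Clopper-Pearson intervals. A gene was called at 2-fold with at least 100 UMIs. The axis is the mean z-score of natural log UMIs + 1 over the luminal list minus that over the basal list. Cells were clustered in Seurat 5.3.0 (R 4.3.3) on 2000 variable features without the members, with 25 (P) and 21 (D) components at resolution 0.2. A cluster's leading genes are those with the largest ratio against the rest among genes with at least 50 UMIs. Named genes are the members, Upk3bl, listed genes, leading genes and the 10 genes most like the members. Genes sharing reads through near-identical copies were not resolved further. Scrublet (Scanpy 1.11.5) called 0 of 6818 and 0 of 4896 cells doublets, so that its threshold did not work. No doublet was removed, and the 5% of cells with the highest scores were left out as an alternative chosen after seeing the data. Code was tested on simulated data. Alternatives covered cell filters, scaling, thinning, detection threshold, clusters and the axis.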

Additional observations from a re-analysis of the deposited data

Results flagged for a closer look

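The order of the tetraspanins on the axis differed between libraries. The median UMI rank of Upk1b minus that of Upk1a was -13.4 percentage points in P and 5.21 in D. The range in P between opposite limits of the separate intervals (-31.9 to -0.377) included 0 in 4 of 11 alternative settings. With 1 library per group the difference was not tested.

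Uroplakin transcripts were also present in barcodes that the filter left out. Per 1000000 non-mitochondrial UMIs, the 2079 D barcodes left out held 297 UMIs of Upk1a (274 to 322), 261 of Upk1b (239 to 284), 32.8 of Upk2 (25.5 to 41.6), 181 of Upk3a (164 to 201) and 13.5 of Upk3b (8.98 to 19.5), each above the 1376 P barcodes left out, where the values were 24.1, 8.53, 1.004, 0 and 1.004. In kept D cells these levels were 513, 406, 40.3, 365 and 15.7. Upk3a made up 23.1% (21.1 to 25.2%) of the uroplakin UMIs in the left-out D barcodes and 27.2% in the kept ones.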

How the results depend on the processing

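For the values that moved the cause was not tested. The median log2 ratio of the members (5.80) was 5.46 without mitochondrial and ribosomal protein genes and 5.38 when scaled by the median ratio, and within its counting interval under the other 5 alternatives. The shares of cells with any member, 2.58% in P and 53.6% in D, varied with the setting: 2.13 and 44.3% at 1500 UMIs, 4.10 and 68.0% at 3000 UMIs, which also drops shallower cells, 4.44 and 58.2% without thinning, and 0.633 and 35.4% for at least 2 uroplakin UMIs. The median pair ratio of partners over that of other pairs, 1.04, was 0.938 with over 1000 genes and at most 10% mitochondrial UMIs, lay between 0.938 and 1.09 over 11 alternatives and fell below 1 in 5 of them, so its side of 1 was not settled. The median UMI rank of Upk3a minus that of Upk1a in D, 9.78 percentage points, was 12.8 at 3000 UMIs, 11.3 with another random seed and 7.18 on the basal side list alone. Upk1b minus Upk1a ranged from 1.31 to 6.60 in D and from -21.7 to -5.90 in P. Between opposite limits of the separate intervals, this difference included 0 in 1 and in 4 of 11 alternatives. Upk2 minus Upk1a ranged from -5.23 to 1.31 and Upk3b minus Upk3a from -2.16 to 2.63, so the order by UMI rank within either pair was not settled. Genes at least 2-fold higher in D cells with 3 or more members numbered 214 and, without thinning, 347. With no minimum of UMIs, 22.9% of genes were at least 2-fold higher in D. Leaving out cells that Scrublet called doublets changed nothing, since it called none. No paired analysis was possible because each group held 1 library. Depth limits Upk2 and Upk3b most, at about 1 UMI per positive cell.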
